A study of Homo sapiens with 21 samples.

Results

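Clones PK7 and PK19 are 2 lines derived from the established cell line U-87MG, which comes from a human glioblastoma, and both carry parkin. They were compared with each other across 18374 genes. The comparison used 6 of the 21 arrays of the study: those titled PK7, sets 1 to 3, and those titled PK19, sets 1 to 3. Because parkin was present on both sides, the comparison shows how far 2 parkin lines of the same parent differed, and not what parkin did.

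The study measured total RNA on Affymetrix whole-transcript gene arrays in parkin lines PK7, PK19 and PK25 and in vector lines V8, V17 and V22. All lines were seeded alike and grown for 24 hours before extraction, and no further treatment is stated. PK7, PK19, PK25 and V22 sets 4 to 6 share an array series and gave 12 arrays. The promoter that drove parkin, and whether the 3 arrays of a line came from separate cultures, are not given in the sources used here. Each line is a single clone with 3 arrays. Unless another fit is named, every p-value below is set against the spread between arrays within these 4 lines, which may be technical.

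Parkin is a ubiquitin ligase of the outer mitochondrial membrane pathway: the kinase PINK1 accumulates on damaged mitochondria and activates parkin, which marks outer membrane proteins for removal of the organelle by mitophagy. A clonal line descends from a single cell, and clones of one tumour line can differ from each other. U-87MG grows as an adherent, mesenchymal type of glioma culture that makes matrix proteins.

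Values are log2 intensities, on which a difference of 1 is 2-fold, and differences are PK7 minus PK19 with their standard error (SE). A gene was called at an adjusted p under 0.05 (limma, Benjamini-Hochberg over all 26947 probe sets). Array medians lay between 6.26 and 6.36 in PK7 and PK19, and arrays of a clone correlated at 0.989 to 0.997 over probe sets. Set 2 stood apart in both clones: 359 probe sets of PK7 set 2 and 238 of PK19 set 2 lay at least 2-fold from the mean of their other arrays, against 33 to 70 on the remaining 4 arrays. In PK25 the counts were 41, 222 and 282 on sets 1 to 3, and in V22 37, 166 and 57 on sets 4 to 6. These arrays also enter the spread behind the p-values and the means of PK25 and V22. Both set 2 arrays of PK7 and PK19 carried higher hypoxia target genes. The list mean was 9.72 in PK7 set 2 against 9.03 and 8.98, and 9.88 in PK19 set 2 against 9.05 and 9.04. PK7 set 2 also had the lowest mean of the DNA replication list, 8.65 against 9.17 and 9.18, and in PK19 set 2 it was 9.04 against 9.05 and 9.09. The mesenchymal markers were high in both clones, with means of 13.20 and 12.93 for FN1, 12.50 and 12.89 for VIM and 12.11 and 12.53 for CD44 in PK7 and PK19. The astrocyte marker GFAP, at 6.34 and 6.31, was near the array median, and S100B, at 4.09 and 4.04, and AQP4, at 3.62 and 3.59, were below it.

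PK7 and PK19 differed widely. Of 18374 genes, 3158 were called (17.2%), 1556 higher in PK7 (8.47%) and 1602 higher in PK19 (8.72%). The difference reached 2-fold in 550 called genes (2.99%), 307 higher in PK7 (1.67%) and 243 higher in PK19 (1.32%). It passed 4-fold in 53 genes higher in PK7 and 56 higher in PK19, and 8-fold in 15 and 14. For 6080 genes (33.1%) all 3 arrays of a clone lay above the 3 of the other, and 3141 of the called genes were among them. The median difference of all genes was 0.0042, and the median size of a difference was 0.15. Without both set 2 arrays, 2748 genes were called and 559 at 2-fold. The gene list counts below are to be read beside the shares of 8.47% and 8.72% of all genes. Among genes with a chromosome position (placed genes) and a mean level above 7, the shares were 12.2% higher in PK7 and 13.8% higher in PK19.

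**Figure D1:**
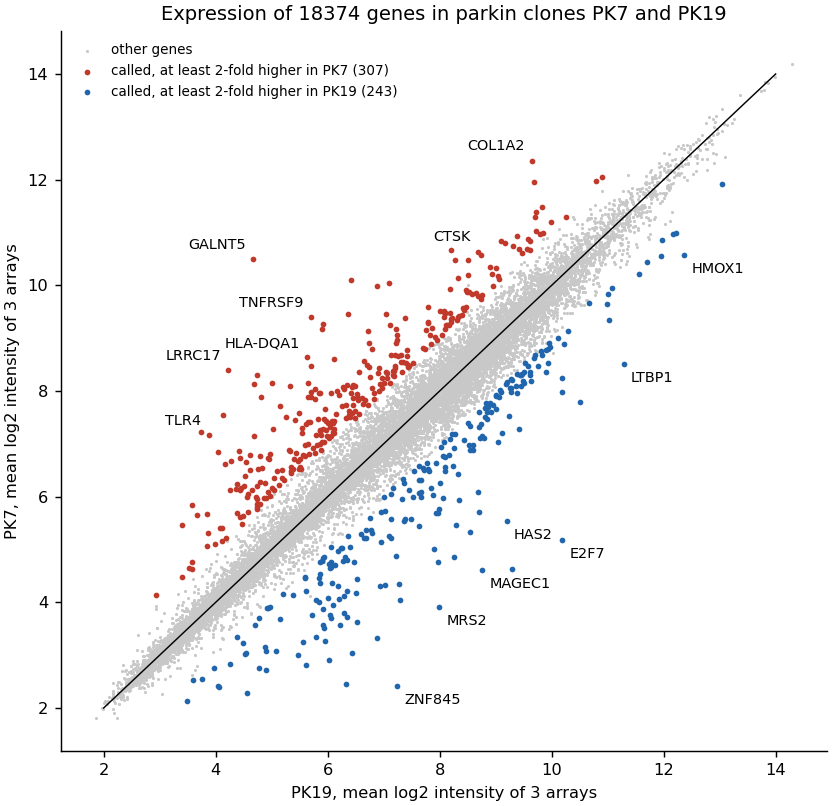
Mean log2 intensity of 3 arrays in PK19 (horizontal axis) and PK7 (vertical axis) for 18374 genes, with the line of equality. Red points are the 307 genes called and at least 2-fold higher in PK7, blue points the 243 higher in PK19, and grey points all others, most of which lie along the line.

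The largest difference higher in PK7 was in GALNT5, an enzyme that starts mucin-type O-glycosylation. GALNT5 read 10.40, 10.66 and 10.43 in PK7 and 4.31, 4.85 and 4.86 in PK19. The difference of 5.82 ± 0.15 (SE) is 56.6-fold (limma adjusted p = 8.79e-11), and PK25, at 7.82, and V22, at 7.84, lay between the clones. LRRC17, a secreted leucine-rich repeat protein, followed with 8.26, 8.52 and 8.40 against 4.01, 4.76 and 3.90, a difference of 4.17 ± 0.18. TNFRSF9, the costimulatory receptor 4-1BB, read 9.44, 9.29 and 9.45 against 5.68, 5.66 and 5.74, a difference of 3.70 ± 0.16. In each of these genes the lowest PK7 array stood more than 3 log2 units above the highest PK19 array.

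Several genes of this group were high in PK7 alone among the 4 clones measured together. TLR4, the receptor for bacterial lipopolysaccharide, read 7.35, 6.72 and 7.40 in PK7 and 3.67, 3.99 and 3.97 in PK19, with means of 3.89 in PK25 and 3.72 in V22. The small heat shock protein gene CRYAB read 7.48, 8.83 and 7.36 against 4.66, 5.18 and 4.62, with its highest value on PK7 set 2. EMILIN2, an elastic fibre glycoprotein, differed by 3.35 ± 0.10 and TUSC3, a subunit of the oligosaccharyltransferase complex, by 3.69 ± 0.33. For EMILIN2 the PK25 and V22 means of 6.13 and 6.15 were close to the PK19 arrays, which lay between 5.90 and 5.97.

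In other genes PK19 was the clone that departed. ALDH7A1, an aldehyde dehydrogenase of lysine breakdown, read 8.19, 8.66 and 8.06 in PK7 and 4.31, 5.49 and 4.40 in PK19, against means of 8.55 in PK25 and 8.72 in V22. SLFN11, which acts at stalled replication forks, read 8.19, 7.80 and 8.40 against 4.51, 4.59 and 4.98, with 7.92 in PK25 and 7.93 in V22. HMGN3, a nucleosome-binding protein gene, differed by 3.43 ± 0.21 with PK25 and V22 at 7.24 and 7.52, beside PK7. The surface glycoprotein gene CD24 read 6.43, 8.55 and 6.69 in PK7 against 3.71, 4.11 and 3.38 in PK19, so its PK7 arrays spread over more than 2 log2 units. The kinase gene TNIK, by contrast, read 8.11, 8.17 and 8.15 against 5.04, 4.94 and 5.07.

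The largest difference higher in PK19 was in E2F7, a repressor of the E2F family that acts in the cell cycle. E2F7 read 4.94, 5.23 and 5.36 in PK7 and 10.09, 10.20 and 10.28 in PK19, a difference of -5.01 ± 0.11 or 32.2-fold (limma adjusted p = 1.06e-11). The means of 5.20 in PK25 and 5.06 in V22 put PK19 alone at the high level. Its relative E2F1 differed by -0.39 only, a call lost in 6 of 18 other settings, among them those without PK7 replicate 2 (set 2), PK7 replicate 3, PK19 replicate 1 or PK19 replicate 3. PNLIPRP3, a gene of the pancreatic lipase family, read 4.64, 4.37 and 4.86 against 9.16, 9.29 and 9.43. MRS2, the magnesium channel of the inner mitochondrial membrane, read 3.86, 4.05 and 3.83 against 8.10, 7.78 and 8.09, with 3.98 in PK25 and 3.95 in V22.

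Cancer-testis genes, which most adult tissues keep silent, were also among the largest differences toward PK19. MAGEC1 on chromosome X read 4.89, 4.21 and 4.76 in PK7 and 8.44, 8.87 and 8.96 in PK19. SAGE1, another cancer-testis gene of chromosome X that is not in the list counted here, read 3.00, 3.10 and 3.04 against 6.50, 6.22 and 6.61. MAGEA1 (-2.83 ± 0.11) and SSX1 (-2.42 ± 0.15) were also higher in PK19, whereas MAGEC2 was higher in PK7 by 0.81 ± 0.18. Of the 21 measured genes of the cancer-testis list, MAGEC1, MAGEA1 and SSX1 were the 3 higher in PK19 (14.3%). MAGEC2 was the 1 higher in PK7 (4.76%), and the list median was 0.02. DCC, the netrin receptor, differed by -3.21 ± 0.16, and LDOC1, a leucine zipper gene of chromosome X, by -3.21 ± 0.17. For both, PK25 and V22 lay beside PK7.

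HAS2, the main hyaluronan synthase, showed the opposite arrangement. It read 5.69, 5.60 and 5.32 in PK7 and 8.72, 10.15 and 8.73 in PK19, with means of 8.64 in PK25 and 7.75 in V22, so PK7 was the low clone. ELAPOR2, an endosomal and lysosomal membrane protein gene, read 5.08, 4.71 and 4.76 in PK7 against 8.02, 8.50 and 8.23 in PK19, with 7.59 in PK25 and 8.02 in V22. All 30 of the largest differences, 15 each way, kept their call in each other setting that gave them a value, 18 for 22 of them and 17 for the 8 that the filter on dim probe sets removed.

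**Figure D2:**
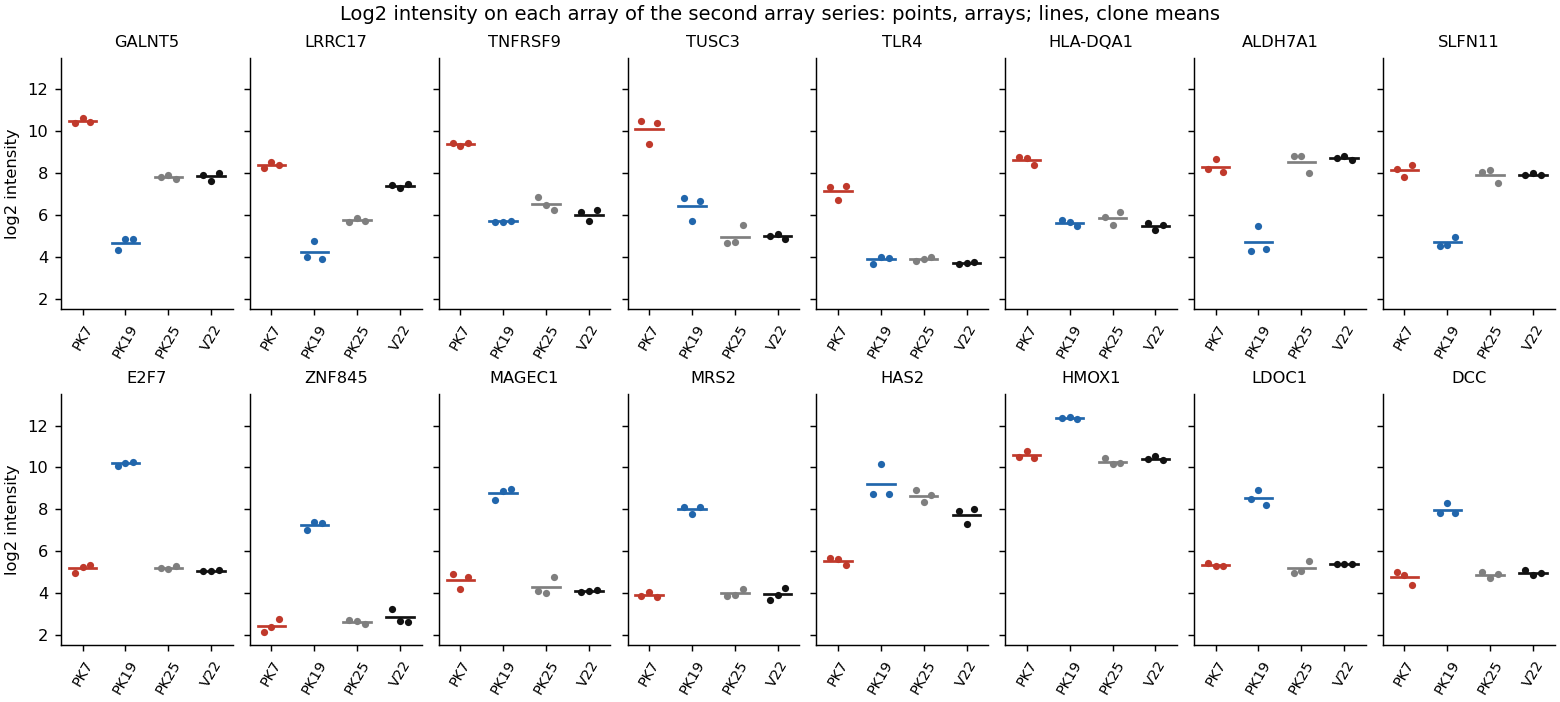
Log2 intensity (vertical axis) of 16 genes on each of the 3 arrays of PK7, PK19, PK25 and V22 (sets 4 to 6), with a line at each clone mean. In E2F7, ZNF845, MAGEC1, MRS2, HMOX1, LDOC1 and DCC PK19 stands above the other 3 clones, in TLR4 and HLA-DQA1 only PK7 is high, and in ALDH7A1 and SLFN11 only PK19 is low.

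Across the 2-fold genes, the position of the other 2 clones depended on the direction. Of the 243 genes higher in PK19, the means of PK25 and V22 both lay within 0.5 log2 units of PK7 for 118 (48.6%) and within 0.5 of PK19 for 28 (11.5%). Of the 307 higher in PK7, both lay near PK7 for 80 (26.1%) and near PK19 for 81 (26.4%). No test of this difference was made, and the counts describe clone means of 3 arrays. The 118 include 32 ZNF genes of chromosome 19, described next. Genes higher in PK19 were also more often dim: without the dimmest 30% of probe sets, 174 were called at 2-fold higher in PK19 and 285 higher in PK7. The positions of the other clones were not counted without dim genes.

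Zinc finger genes of chromosome 19 made up 42 of the 243 genes 2-fold higher in PK19. Most of the KRAB zinc finger genes, a family of sequence-specific repressors that bind repeat elements, lie in clusters on chromosome 19. Of 237 measured genes with a ZNF symbol on chromosome 19, 84 were higher in PK19 (35.4%, against 8.72% of all genes) and 3 were higher in PK7. Chromosome 19 as a whole also leaned toward PK19. Of its 556 placed genes with a mean level above 7, 171 were higher in PK19 (30.8%) and 11 in PK7 (1.98%). The share of 35.4% is thus near that of the chromosome. At 2-fold, 48 of all 1306 genes of chromosome 19 were higher in PK19. Of 256 ZNF genes on other chromosomes, 23 were higher in either clone (8.98% each way). The family was singled out after the values were seen, and so carries no test. The chromosome 19 list mean was 4.96, 4.99 and 4.97 on the PK7 arrays and 5.45, 5.48 and 5.52 on the PK19 arrays, so no array of one clone overlapped the other. Without both set 2 arrays the counts were 75 higher in PK19 and 5 in PK7.

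The difference reached 2-fold in 42 ZNF genes of chromosome 19, all higher in PK19. Their median level was 3.84 in PK7, 3.80 in PK25, 3.80 in V22 and 6.08 in PK19. PK7 lay within 0.5 of both PK25 and V22 for 32 of them, and PK19 lay at least 2-fold above both for 33. ZNF845 read 2.14, 2.37 and 2.75 in PK7 and 7.02, 7.38 and 7.34 in PK19. ZNF737 read 3.15, 3.74 and 3.08 against 6.83, 6.89 and 6.94, and ZNF566 read 2.67, 3.07 and 2.97 against 6.07, 5.81 and 6.17. For 40 of the 42 the PK7 mean was below 7, and for only 11 was the PK19 mean above 7. The median level of 3.84 in PK7 was well below the array medians of 6.26 to 6.36, a dim level where log2 folds are compressed. That of 6.08 in PK19 was also below them. ZNF274 was among the 3 in the other direction, at a mean of 7.19 ± 0.15 (SD, n = 3) in PK7 and 6.34 ± 0.18 in PK19. Many ZNF genes are close paralogs, and how far their probe sets cross-react was not tested. A single large difference elsewhere was that of ZNF680 on chromosome 7, which read 2.19, 2.67 and 2.49 against 6.13, 6.25 and 6.58. The 256 ZNF genes on other chromosomes showed no common direction. Of them 3 were called 2-fold higher in PK19 and 4 higher in PK7, and their median was -0.03.

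Promoter sequences of the 3 ZNF genes of chromosome 19 with the largest differences and of E2F7 are given because these genes were dim in PK7 and brighter in PK19. They are RefSeq sequences of GRCh38.p14, 180 bases long and ending just before the gene start, 5′ to 3′ on the strand of the gene. Capitals mark the dinucleotide CG, the site of DNA methylation, which reads the same on both strands. ZNF845 is at chr19:53333569-53333748 on the + strand, ZNF737 at chr19:20565782-20565961 on the - strand, ZNF566 at chr19:36489562-36489741 on the - strand, and E2F7 at chr12:77065570-77065749 on the - strand.
ZNF845: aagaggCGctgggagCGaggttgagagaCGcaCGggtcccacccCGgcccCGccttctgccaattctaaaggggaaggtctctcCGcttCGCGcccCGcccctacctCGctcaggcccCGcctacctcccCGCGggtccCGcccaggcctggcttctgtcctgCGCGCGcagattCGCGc
ZNF737: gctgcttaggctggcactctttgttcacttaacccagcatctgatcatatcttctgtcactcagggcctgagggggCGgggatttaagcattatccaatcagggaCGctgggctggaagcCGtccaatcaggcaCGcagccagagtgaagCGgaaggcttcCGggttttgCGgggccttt
ZNF566: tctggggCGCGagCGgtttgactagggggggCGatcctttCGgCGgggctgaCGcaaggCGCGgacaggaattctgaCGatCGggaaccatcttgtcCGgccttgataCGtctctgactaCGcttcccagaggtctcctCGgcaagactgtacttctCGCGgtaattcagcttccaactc
E2F7: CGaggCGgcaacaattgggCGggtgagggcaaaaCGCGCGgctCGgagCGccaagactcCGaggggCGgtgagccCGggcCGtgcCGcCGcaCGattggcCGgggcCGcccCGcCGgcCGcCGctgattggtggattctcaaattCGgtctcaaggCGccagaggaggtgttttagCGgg
The stretch shown holds 20 CG in ZNF845, 7 in ZNF737, 17 in ZNF566 and 24 in E2F7. Over the window of 250 bases before to 50 after the start, the observed over expected CG ratio was 0.89, 0.35, 0.88 and 0.96. Its median was 0.70 in the 37 of the 42 ZNF genes with an entry, 0.77 in 204 of the 237 ZNF genes of chromosome 19 and 0.77 in 14208 of all 18374 genes. It was 0.72 in the 2-fold genes of either direction. At least 1 CG stood in 98.2% of all these windows, so a match here sets no gene apart, and DNA methylation itself was not analysed here.

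**Figure D3:**
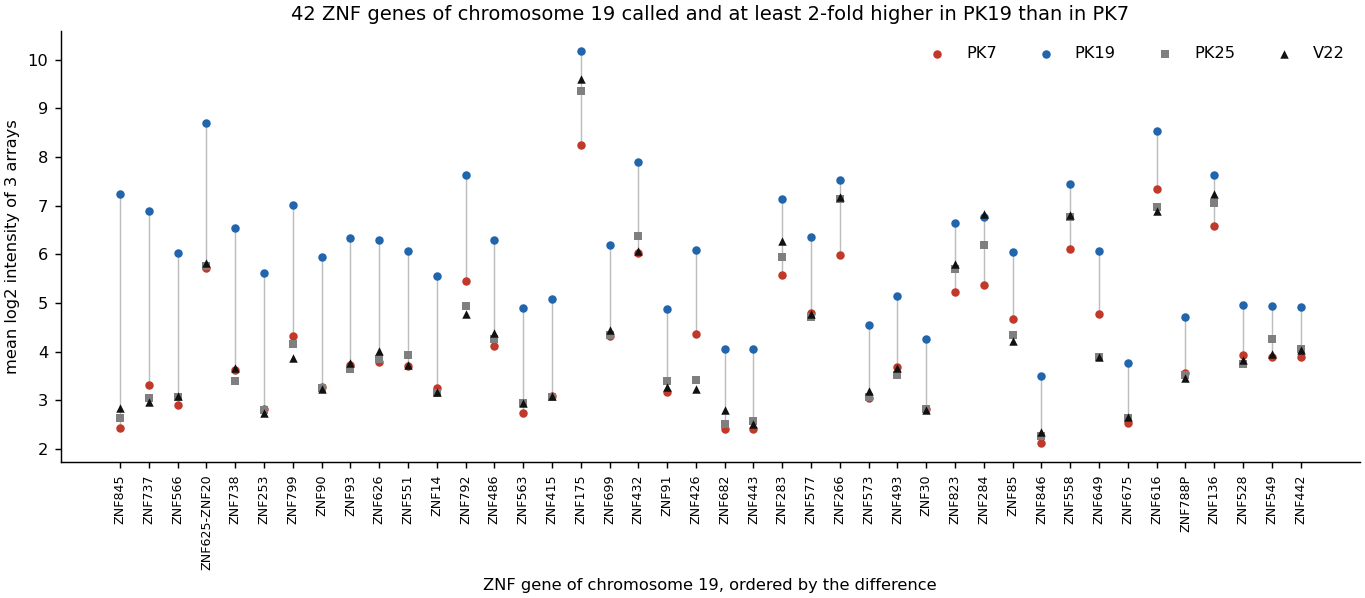
Mean log2 intensity of 3 arrays (vertical axis) in PK7, PK19, PK25 and V22 for the 42 ZNF genes of chromosome 19 called and at least 2-fold higher in PK19, ordered by the size of the difference. PK19 is alone above the other 3 clones in most of them, and ZNF284 is a gene where V22 is as high as PK19.

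Several collagens and other matrix genes were higher in PK7. Of 34 measured collagen genes, 10 were higher in PK7 (29.4%, against 8.47% of all genes), 24 were not called and no collagen gene was called higher in PK19, where 1 had an unadjusted p under 0.05 (limma), and the list median was 0.18 against 0.0042 for all genes. This median was 0.10 without PK7 set 2 and 0.11 without both set 2 arrays. COL1A2, the second chain of type I collagen, read 12.11, 12.85 and 12.12 in PK7 and 9.47, 10.04 and 9.44 in PK19, a difference of 2.71 ± 0.21. COL1A1, its partner chain, read 11.06, 11.78 and 11.03 against 9.60, 10.06 and 9.45, and COL5A2 differed by 2.42 ± 0.14. For both type I chains V22, at 11.94 and 11.07, was beside PK7, and set 2 was the highest array of each clone. COL8A1 (1.13 ± 0.13) and COL4A1 (1.08 ± 0.15) were also called. COL5A1 differed by 1.03, but the fit on only the 6 arrays and those without PK19 replicate 1 or PK19 replicate 3 lost its call. With arrayWeights 2 collagen genes were called higher in PK19.

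Of 35 other matrix glycoproteins and proteoglycans, 11 were higher in PK7 (31.4%) and 2 in PK19 (5.71%). The list median of 0.29 was 0.10 without PK7 set 2 and 0.22 without both set 2 arrays. LOXL1, which crosslinks elastin, read 10.68, 11.10 and 10.65 against 9.01, 9.41 and 9.07. MATN2, a matrilin, differed by 1.95 ± 0.10 and MGP, an inhibitor of calcification, by 2.26 ± 0.34. THBS1, the adhesive glycoprotein thrombospondin 1, read 8.27, 11.49 and 8.00 in PK7 against 6.92, 7.47 and 6.93 in PK19. PK7 set 2 was its high array, and the call on the difference of 2.14 ± 0.66 was lost in 9 of the 18 other settings, those without any 1 of the PK19 replicates among them. The 2 genes in the other direction were HAS2 and EFEMP1, a fibulin, at 5.79, 7.27 and 5.74 against 8.09, 7.86 and 8.08. SPARC, an abundant matricellular protein, read 11.70, 12.60 and 11.62 against 10.81, 10.79 and 10.80.

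Matrix receptors and basement membrane proteins gave similar counts. Of 26 integrins, laminins and nidogens, 11 were higher in PK7 (42.3%), 3 were higher in PK19 (11.5%) and 12 were not called. The list median of 0.36 was 0.23 without PK7 set 2. The laminin chain gene LAMA4 read 10.44, 11.20 and 10.35 against 8.22, 8.11 and 8.29. ITGA6, the alpha 6 integrin that binds laminin, read 6.79, 6.10 and 6.99 in PK7 against 4.34, 3.84 and 4.32 in PK19. The PK25 and V22 means of ITGA6, 7.10 and 7.06, were beside PK7, and those of LAMA4, 9.22 and 8.37, were not. NID2 (1.81 ± 0.20), the collagen-binding integrin gene ITGA11 (1.58 ± 0.23) and LAMC1 (1.21 ± 0.17) were also higher in PK7. Of 17 contractile genes, 7 were higher in PK7 (41.2%) and 1 in PK19 (5.88%), and without both set 2 arrays 5 and 1. Among them MYLK, the myosin light chain kinase, differed by 1.25 ± 0.14, smooth muscle actin ACTA2 by 1.17 ± 0.13 and tropomyosin TPM2 by 1.10 ± 0.18. SMTN, on chromosome 22, was the exception at -1.26 ± 0.14.

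Proteases that act on matrix were split, with 7 of 30 genes of that list higher in each clone (23.3% each way). CTSK, a lysosomal collagenase, read 10.57, 10.65 and 10.70 in PK7 and 8.49, 9.03 and 8.53 in PK19. SERPINE2, an inhibitor of thrombin and urokinase, was higher in PK7 by 1.74 ± 0.12. ADAMTS5, which cleaves aggrecan, read 7.88, 8.23 and 7.82 in PK7 and 10.13, 10.22 and 10.19 in PK19. Urokinase PLAU (-0.96 ± 0.16) and its receptor PLAUR (-0.87 ± 0.09) were also higher in PK19.

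Antigen presentation genes of class II were higher in PK7. Of 11 measured class I and II genes, 6 were higher in PK7 (54.5%), and the median was 0.49. In PK19 0 were higher (limma, 0 also at an unadjusted p under 0.05 and with arrayWeights). HLA-DQA1 read 8.79, 8.71 and 8.40 in PK7 and 5.78, 5.66 and 5.47 in PK19, with 5.84 in PK25 and 5.48 in V22. HLA-DMB, a chaperone of peptide loading, differed by 1.40 ± 0.14, HLA-DMA by 1.33 ± 0.16, HLA-DPB1 by 1.32 ± 0.22 and HLA-DPA1 by 1.19 ± 0.20. These genes are polymorphic and near-identical in part, so probe sets could cross-react, which was not tested. The peptide transporter TAP1, the sixth, differed by 0.49, a call lost in 9 of 18 other settings, and the blocked fit named in the processing section kept 6.

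Complement and inflammatory genes gave a mixed picture. Of 18 complement genes 6 were higher in PK7 (33.3%) and 1 in PK19 (5.56%), but 4 and 1 without both set 2 arrays, where the median of 0.21 became 0.07. It was 0.11 without PK7 set 2, 0.32 without PK7 set 1 and 0.34 without PK7 set 3. C3, the central complement component, read 10.02, 10.47 and 10.17 in PK7 and 8.64, 9.64 and 8.51 in PK19, and both clones were above PK25, at 6.30, and V22, at 5.17. Of 33 genes of the NF-kB and inflammation list, 5 were higher in PK7 (15.2%) and 6 in PK19 (18.2%), and without both set 2 arrays 7 and 4. LIF, a cytokine of the IL6 family, read 7.31, 7.00 and 7.29 in PK7 and 9.12, 9.59 and 8.65 in PK19. IL6 read 6.60, 7.42 and 6.61 against 8.09, 9.56 and 8.11, with its highest value of each clone on set 2. PTGS2, the inducible cyclooxygenase, differed by -1.65 ± 0.26. IL1B differed by -1.68 ± 0.37 with all arrays, and its call was lost without both set 2 arrays. TNFAIP3, a feedback inhibitor of NF-kB, was higher in PK7 by 1.27 ± 0.23.

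The interferon-response list had many called genes and no common direction, with 9 of 38 higher in PK7 (23.7%) and 10 in PK19 (26.3%). Its median was 0.02. IFITM3 (1.46 ± 0.14), OAS3 (1.21 ± 0.10) and OAS2 (1.07 ± 0.13), which act against viruses, were higher in PK7. IFIT1 (-0.94 ± 0.17) and HERC5 (-0.84 ± 0.13), of the same response, were higher in PK19. Without both set 2 arrays 10 were higher in PK7 and 4 in PK19.

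Targets of NRF2, the transcription factor of the oxidative stress response, included several that were higher in PK7. Of 24 measured, 7 were higher in PK7 (29.2%), 1 was higher in PK19 (4.17%) and 16 were not called, with a median of 0.22. The efflux pump gene ABCC2 read 10.08, 9.70 and 10.21 in PK7 and 6.99, 6.61 and 7.06 in PK19. The quinone reductase NQO1 read 12.20, 11.87 and 12.08 against 11.18, 10.29 and 11.23. The ketoreductase AKR1C3 differed by 1.98 ± 0.13, AKR1C2 by 1.51 ± 0.19 and GCLC, which makes glutathione, by 0.88 ± 0.19. AKR1C2 and AKR1C3 are close paralogs and may share signal. HMOX1, heme oxygenase 1, had the opposite sign, at 10.52, 10.79 and 10.44 in PK7 and 12.36, 12.42 and 12.32 in PK19. PK25 and V22, at 10.27 and 10.42, lay beside PK7 for HMOX1, which is on chromosome 22. Of 29 drug metabolism and transport genes 6 were higher in PK7 (20.7%) and 1 in PK19 (3.45%), among them the pump genes ABCG2 (1.53 ± 0.21) and ABCC1 (0.83 ± 0.13).

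Lipid genes differed singly. FADS2, the delta-6 desaturase, read 8.94, 9.48 and 9.01 in PK7 and 6.58, 7.01 and 6.59 in PK19, with 6.47 in PK25 and 6.36 in V22. GPAM, which starts glycerolipid synthesis, was higher in PK19, with a difference of -1.15 ± 0.22. Of 22 lipid genes, 3 were higher in each clone (13.6% each way, near the 12.2% and 13.8% of placed genes above 7). In the cholesterol pathway 3 of 18 were higher in PK7 (16.7%) and 1 in PK19 (5.56%), including DHCR7 (0.78 ± 0.14) and SQLE (0.69 ± 0.13). The median was -0.04.

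Growth factors and signalling genes differed in both directions. Of 30 growth factors, 7 were higher in each clone (23.3% each way). HGF, the ligand of the receptor MET, read 7.67, 6.60 and 7.55 in PK7 and 9.38, 9.42 and 9.43 in PK19. ANGPT2, a ligand of the receptor TEK, read 6.30, 7.85 and 6.41 against 4.19, 4.61 and 4.43. The neuregulin gene NRG1 (-1.68 ± 0.19) and TGFA (-1.13 ± 0.11), ligands of ERBB receptors, were higher in PK19, and KITLG (1.40 ± 0.18) and ANGPT1 (1.33 ± 0.27) were higher in PK7. Of 30 receptor tyrosine kinases, 4 were higher in PK7 (13.3%, against 8.47% of all genes and 12.2% of placed genes above 7). No such gene was called higher in PK19, where 1 had an unadjusted p under 0.05 (limma) and arrayWeights called 1. The 4 higher in PK7 were ROR1 (1.38 ± 0.17), TEK (1.05 ± 0.19), FGFR1 (0.89 ± 0.08) and DDR1 (0.58 ± 0.12).

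Feedback inhibitors and immediate early genes of the MAPK pathway included 9 that were higher in PK19 (33.3%) among 27 measured. Of the rest 1 was higher in PK7 and 17 were not called, with a median of -0.26 and of -0.24 without both set 2 arrays. DUSP1, a phosphatase that inactivates MAP kinases, read 9.53, 9.81 and 9.70 in PK7 and 10.52, 10.97 and 10.44 in PK19. DUSP5 (-0.87 ± 0.12) and DUSP4 (-0.72 ± 0.12), nuclear phosphatases, had the same direction. So had the receptor signalling inhibitors SPRY4 (-0.89 ± 0.13), SPRED2 (-0.71 ± 0.11) and SPRY2 (-0.69 ± 0.12). For SPRY4 and SPRY2 the means of PK25, 8.95 and 10.13, and of V22, 9.30 and 10.30, lay above both clones.

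In the TGF-beta and BMP list, 7 of 30 genes were higher in PK7 (23.3%) and 4 in PK19 (13.3%). LTBP1, which holds latent TGF-beta in the matrix, read 8.49, 8.71 and 8.36 in PK7 and 11.27, 11.33 and 11.26 in PK19. TGFBR2, the type II receptor, read 10.29, 10.33 and 10.34 against 9.02, 9.05 and 8.95. TGFB3 (1.29 ± 0.13) and ID3, a BMP target (1.51 ± 0.14), were higher in PK7, and GDF15, a stress-induced member of the family, was higher in PK19 (-0.97 ± 0.12). In the WNT list 7 of 29 were higher in PK7 (24.1%) and 4 in PK19 (13.8%). The secreted WNT inhibitors DKK1 (1.74 ± 0.35), SFRP4 (1.30 ± 0.20) and DKK3 (1.24 ± 0.17) were higher in PK7. WNT5A, a ligand, was higher in PK19 at -0.79 ± 0.09, with values of 9.70, 9.71 and 9.63 against 10.49, 10.43 and 10.48.

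Cell surface genes of the nervous system were split as well. Of 27 cadherin and neural adhesion genes, 4 were higher in each clone (14.8% each way). NCAM2 read 4.24, 4.64 and 4.05 in PK7 and 6.86, 6.95 and 7.02 in PK19, NCAM1 differed by -1.38 ± 0.12, and NRCAM was higher in PK7 by 1.97 ± 0.22. Of 30 semaphorins, plexins and ephrins with their receptors, 5 were higher in PK7 (16.7%) and 6 in PK19 (20%). They were led by the receptor gene EPHA5, at 5.91, 5.31 and 5.54 against 7.60, 7.18 and 7.70. Among homeobox genes, HOXD10 (1.73 ± 0.22) and HOXD11 (1.28 ± 0.11) were higher in PK7, and PBX3, a HOX cofactor, read 8.92, 8.83 and 9.01 against 7.22, 7.17 and 7.27.

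The clustered protocadherin beta genes, singled out after the values were seen, depended on a single array. Of 18, 5 were higher in PK19 (27.8%) with all arrays and 8 without both set 2 arrays, where the median moved from -0.52 to -0.83. The list mean was 5.45 and 5.51 on PK7 sets 1 and 3 but 6.44 on PK7 set 2, against 6.34 to 6.43 on the PK19 arrays. None was called higher in PK7 (limma), where 1 had an unadjusted p under 0.05 and the fit on 6 arrays with a set block called 1.

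Counts of cell division genes depended on the setting, and the replication histone genes called were mostly higher in PK19. Of 34 DNA replication genes, 2 were higher in PK7 (5.88%) and 4 in PK19 (11.8%), with a median of -0.04. Without both set 2 arrays these counts were 6 and 1 and the median 0.09, with arrayWeights the counts were 8 and 5, and with the set block 2 and 2. CDC45, a helicase cofactor on chromosome 22, read 7.96, 7.51 and 7.94 in PK7 and 8.71, 8.59 and 8.75 in PK19. MCM4, a helicase subunit, was higher in PK7 at 0.43 ± 0.09. In the G2 and mitosis list no gene of 36 was called higher in PK7 (limma, 2 at an unadjusted p under 0.05, 7 with arrayWeights, 1 with the set block). In PK19 3 were called higher (8.33%, against 13.8% of placed genes above 7). These were NUF2, KIF11 and MKI67, whose calls were all lost without both set 2 arrays, where 1 other gene was called. The list median of -0.16 was 0.03 without PK7 set 2 and 0.05 without both set 2 arrays. Of 36 replication-dependent histone genes, 7 were higher in PK19 (19.4%) and 1 in PK7 (2.78%). The list median of -0.27 was -0.12 without PK7 set 2. H2BC14 read 10.58, 10.40 and 10.69 against 12.05, 11.90 and 11.92, and the linker histone gene H1-1 differed by -1.29 ± 0.15. CCNE2, a G1 cyclin, was higher in PK7 at 1.00 ± 0.16, and CCND2 was higher in PK19 at -0.91 ± 0.14.

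Genes of the pathway in which parkin acts showed small differences. Of 28 mitophagy and mitochondrial dynamics genes, none was called higher in PK7 (limma, 4 at an unadjusted p under 0.05, 2 with arrayWeights) and 4 were called higher in PK19 (14.3%, against 13.8% of placed genes whose mean level was above 7). The median of -0.16 was -0.14 without PK7 set 2 and -0.12 without both set 2 arrays. CALCOCO2, a receptor that links ubiquitin-tagged organelles to autophagosomes, read 8.47, 8.30 and 8.49 in PK7 and 8.95, 9.10 and 8.91 in PK19. VDAC2, TAX1BP1 and TOMM20 differed by -0.50, -0.43 and -0.41, and lost their calls in 3, 9 and 7 of 18 other settings. TOMM20 was not called with the set number as a block. None of the 28 differed 2-fold and was called.

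Of 28 proteasome subunits, 6 were higher in PK19 (21.4%, against 13.8% of placed genes above 7), with a median of -0.19, which was -0.06 without PK7 set 2. None was called higher in PK7 (limma, 2 at an unadjusted p under 0.05, 3 with arrayWeights). PSMC4 read 9.89, 9.84 and 9.90 in PK7 against 10.76, 10.84 and 10.80 in PK19, and PSMD8, likewise on chromosome 19, differed by -0.49 ± 0.08. With the set number as a block 4 subunits were called, a share near that background, and PSMD4 and PSMB4 were not. Of 24 genes of the ATF4 response to amino acid and other stress, 8 were higher in PK19 (33.3%) and 4 in PK7 (16.7%). The list median of -0.19 was -0.12 without PK7 set 2. Without both set 2 arrays 5 were higher in PK19. PSAT1, of serine synthesis, read 7.67, 7.34 and 7.80 against 9.04, 8.63 and 8.88. The transcription factor gene DDIT3 (-0.72 ± 0.13) and asparagine synthetase ASNS (-0.71 ± 0.13) were also higher in PK19, whereas ALDH1L2 was higher in PK7 (0.90 ± 0.15). Of 35 genes of oxidative phosphorylation, 3 were higher in PK7 (8.57%) and 4 in PK19 (11.4%). Neither share was above the 12.2% and 13.8% of placed genes above 7. Without both set 2 arrays these counts were 1 and 6, and with the set block 1 and 4. The list median of -0.09 ranged from -0.06 to -0.19 when 1 array was left out.

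Hypoxia targets differed more between set 2 and the other sets of PK7 and PK19 than between these clones. None of 29 was called (limma), 3 had an unadjusted p under 0.05, and the list means given above were highest on set 2 in both clones. The PK25 list means showed no such step, at 8.56, 8.59 and 8.41 on sets 1 to 3. BNIP3, a mitophagy receptor, read 10.61, 11.70 and 10.46 in PK7 and 11.39, 12.41 and 11.36 in PK19, a difference of -0.80 ± 0.32. On the 6 arrays of PK7 and PK19 with the set number as a block, the adjusted p of BNIP3 was 0.00288 (limma). It was 0.13 in the main fit on 12 arrays, so the arrays differed as well as the block. On the 9 parkin arrays with the set block BNIP3 was not called. The blocked fit on the 6 arrays called 1 hypoxia target higher in PK7 and 3 higher in PK19. Without both set 2 arrays the counts were also 1 and 3. The median of the list was -0.08, and 0.045 without both set 2 arrays.

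Markers of other cell types gave 4 genes higher in PK19 and 3 higher in PK7 over the lists of neurons, oligodendrocytes, endothelium, blood, epithelium and muscle. SYT1 and SNAP25, of neuronal vesicles, were higher in PK19 at -1.34 ± 0.12 and -0.88 ± 0.19, and the other 14 of the 16 neuronal markers were not called. No blood marker of 14 was called in either direction (limma, 2 at an unadjusted p under 0.05, none with arrayWeights). Array means of these 6 lists lay between 5.27 and 5.99 in PK7 and PK19, below the array medians, and their part in the results was not tested.

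**Figure D4:**
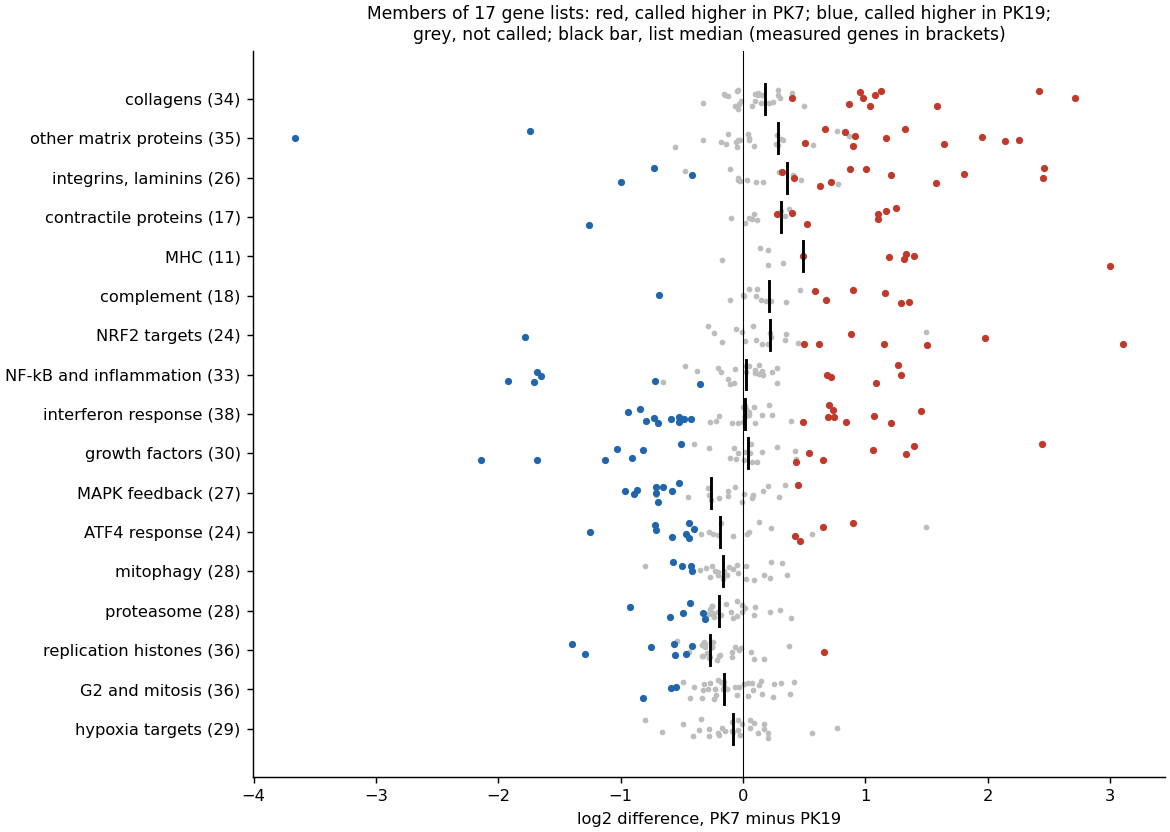
Log2 difference, PK7 minus PK19 (horizontal axis), of each measured member of 17 gene lists, with the number measured in brackets and a black bar at the list median. Collagens, other matrix proteins, integrins and laminins, contractile proteins, MHC, complement and NRF2 targets have medians above 0.15. MAPK feedback, ATF4, mitophagy, proteasome, histone and G2 and mitosis genes have medians below -0.15. Without PK7 set 2 the medians of collagens (0.10), other matrix proteins (0.10) and complement (0.11) fall below 0.15. Those of ATF4 (-0.12), mitophagy (-0.14), proteasome (-0.06), histone (-0.12) and G2 and mitosis genes (0.03) then lie above -0.15.

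Differences clustered by chromosome position. Among 8647 placed genes whose mean level was above 7, where 26% were called (12.2% higher in PK7 and 13.8% higher in PK19), the median difference was taken over 51 neighbouring genes in RefSeq order. A run was a stretch where it was at least 0.25 in size. There were 74 runs with 1650 genes (19.1%), and 12 of them held at least 50 genes each and 1150 together (13.3%). These 12 held 639 of the 2249 called genes (28.4%) and 79 of the 275 called at 2-fold (28.7%). Outside them 1610 of 7497 genes were called (21.5%). The runs are described from the values that defined them, and carry no test.

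The longest run was all of chromosome 22. All 201 placed genes, from GSTT1 to TYMP, lay in it, with a median of -0.54 and 143 of them higher in PK19 (71.1%). None was called higher in PK7 (limma, 1 at an unadjusted p under 0.05, none with arrayWeights). LGALS1, galectin 1, read 12.39, 12.46 and 12.42 in PK7 and 13.09, 13.15 and 13.04 in PK19, and the ribosomal protein gene RPL3 differed by -0.60 ± 0.10. Measured against V22, the run median was -0.49, -0.57 and -0.48 on the PK7 arrays, 0.04, 0.00 and -0.01 on the PK19 arrays and -0.22, -0.25 and -0.24 on the PK25 arrays. PK19 was thus level with V22 across the chromosome, PK7 was lowest and PK25 was between them.

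On chromosome 10 a run of 180 genes from VDAC2 to NKX6-2 had a median of -0.53, with 122 genes higher in PK19 and 6 in PK7. Here PK19 departed more from V22, by 0.35, 0.39 and 0.41 on its arrays, while PK7 lay at -0.11, -0.16 and -0.12. The strongest run was on chromosome 18, where 67 genes from RPRD1A to ADNP2 had a median of -0.72 and 55 were higher in PK19 against 1 in PK7. PK19 lay 0.72, 0.66 and 0.78 above V22 there, and PK7 within 0.09 of it on each array. LMAN1, a cargo receptor of the secretory pathway in this run, read 11.09, 11.23 and 11.15 against 11.83, 12.36 and 11.87. Without both set 2 arrays the medians of these 3 runs were -0.50, -0.50 and -0.63.

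Runs of at least 50 genes higher in PK7 lay on chromosomes 1, 8, 14 and 16. Shorter ones included 43 genes from PACS1 to C11orf24 on chromosome 11, with a median of 0.37 and 21 higher in PK7, and 45 genes from PDCL to ODF2 on chromosome 9, with a median of 0.28. From NUF2 to CDC73 on chromosome 1, 69 genes had a median of 0.49, with 41 higher in PK7 and 2 in PK19, and PK19 lay at -0.70, -0.63 and -0.57 against V22 while PK7 lay at -0.03, -0.23 and -0.06. NUF2 itself, at the edge of the run, had the opposite sign at -0.82 ± 0.20. On chromosome 14, 113 genes from RPPH1 to L3HYPDH had a median of 0.42 and 55 from RTN1 to ISCA2 one of 0.39. In the first of these 57 were higher in PK7 and none was called higher in PK19 (limma, 1 at an unadjusted p under 0.05, 1 with arrayWeights). PK7, PK25 and PK19 all lay below V22 in it, by a median of -0.26, -0.27 and -0.68. HIF1A, the oxygen-regulated transcription factor subunit of the second stretch, was higher in PK7 at 0.41, a call lost without PK19 replicate 1. The run on chromosome 16 held 104 genes with a median of 0.29, and that on chromosome 8 held 60 genes with a median of 0.31.

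Weaker runs of at least 50 genes higher in PK19 lay on chromosomes 2, 19 and 21. Among shorter ones were 41 genes from MSH3 to STARD4 on chromosome 5, with a median of -0.27, and 39 from NUCKS1 to RAB3GAP2 on chromosome 1, with a median of -0.30. The pair on chromosome 2, of 53 and 58 genes, had medians of -0.31 and -0.27, and without both set 2 arrays these were each -0.17, below the size that defined a run. PK7 set 2 was the lowest array of PK7 in both, at -0.52 and -0.49 against V22, where the other 2 lay between -0.21 and -0.22. On chromosome 19, 105 genes from URI1 to ZNF576 had a median of -0.35, and 85 of the 90 placed genes of chromosome 21 one of -0.28. In both of these PK19 lay within 0.06 of V22 on each array. Several chromosomes held no run of any length: the median was 0.05 on chromosome 3, 0.04 on 12, 0.06 on 15, -0.04 on 17 and -0.01 on 20.

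**Figure D5:**
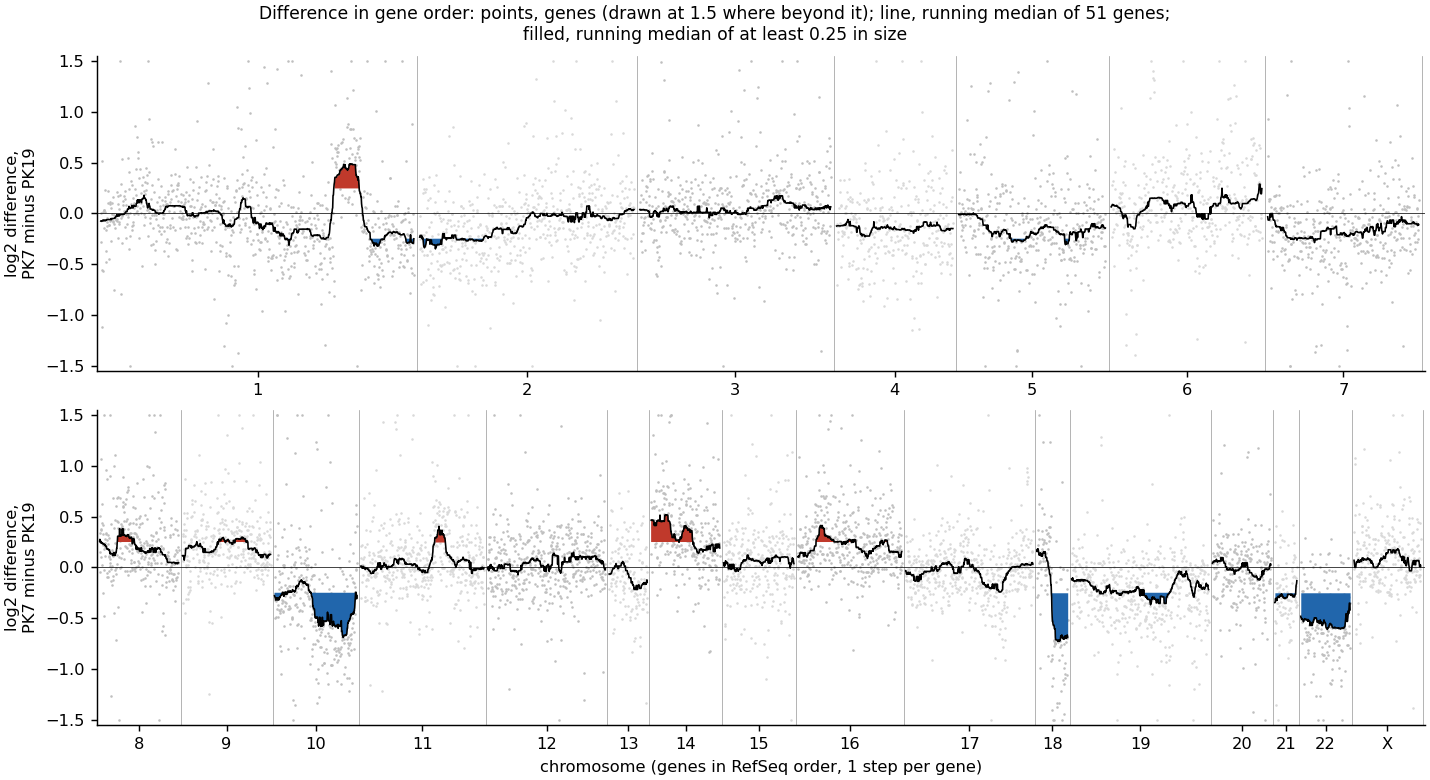
Log2 difference, PK7 minus PK19 (vertical axis), of 8647 genes in RefSeq order along each chromosome (points, drawn at 1.5 where beyond it), with the running median of 51 genes (line). Filled stretches mark a running median of at least 0.25 in size: chromosome 22 is blue over its whole length, and chromosomes 10 and 18 over part of theirs.

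The lists were also set against their chromosome neighbourhoods. For each list member with a mean above 7 the median of its 50 nearest genes outside the list was subtracted. The median of the collagens above 7 went from 0.12 to 0.30 (13 genes), that of the NRF2 targets was 0.35 before and after (20 genes), that of the proteasome went from -0.19 to -0.18 (28 genes) and that of the MAPK feedback genes went from -0.29 to -0.23 (21 genes). Not every list kept its median. That of the interferon-response genes above 7 went from 0.02 to -0.25 (15 genes). That of the G2 and mitosis genes shrank from -0.16 to -0.08 (36 genes). The hypoxia targets changed sign, from -0.08 to 0.07 (25 genes). List medians near 0 can thus depend on chromosome position. How much of a single gene's difference belongs to its neighbourhood cannot be told apart here.

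Among the brightest genes, with means above 10 in both clones, differences were smaller. The 5 largest higher in PK7 were SPARC, NQO1, MAPKAP1, ALYREF and FBN1, from 1.17 down to 0.92. MAPKAP1, a subunit of the kinase complex mTORC2, read 11.36, 11.07 and 11.43 against 10.27, 10.23 and 10.28. FBN1, fibrillin 1, lost its call in 4 settings, namely the fit on 6 arrays and those without PK7 replicate 2, PK19 replicate 1 or PK19 replicate 3, with an adjusted p of up to 0.0901 (limma). The 5 largest higher in PK19 were HMOX1, H2BC14, TMPRSS15, STC1 and NT5E, from -1.78 to -1.24. NT5E, the ectonucleotidase CD73, read 11.26, 10.31 and 11.38 against 12.13, 12.38 and 12.16, and the secreted glycoprotein gene STC1 read 10.26, 10.82 and 10.26 against 11.37, 12.31 and 11.44. For TMPRSS15 PK25 and V22, at 11.74 and 11.75, were beside PK19, and for HMOX1 and STC1 they were beside PK7.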

How the data were processed

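Per the submitters' processing notes the authors normalized with RMA. The deposited values are linear intensity per probe set on 21 arrays, and log2 of them was taken. Only probe sets with exactly 1 gene symbol were named (19305, against 1750 with several and 5892 unlisted), 1 per gene, that with the highest mean over 21 arrays. limma 3.58.1 in R 4.3.3 was fitted to the 12 arrays of 1 array series over all 26947 probe sets, with Benjamini-Hochberg adjustment. On simulated data with 26947 probe sets, 17 of 50 changes of 0.5, 46 of 50 of 1 and 50 of 50 of 2 log2 units were recovered, with 7 false calls. The simulated noise was independent between arrays and probe sets, and only 200 probe sets were changed. It held no shared deviation such as that of set 2, so it gives no error rate for the real arrays. Named genes were first the 15 largest called differences each way among genes whose arrays did not overlap between the 2 clones. The separation of their arrays was thus part of the choice. Next came the 5 largest each way with both means above 10. In these groups unnamed loci, small and long noncoding RNA symbols, olfactory receptors, open reading frames and read-through symbols were passed over. Others were up to 6 called genes of each list (2 where none was called). The last were the end genes and brightest genes of runs of at least 50 genes, a length chosen after values were seen. ZNF, PCDHB and all genes said to be singled out are additions. The members and lists were chosen with earlier results of these data known. The labels do not say whether set numbers pair the arrays, and the data did not settle it. Deviations of same-numbered PK7 and PK19 arrays correlated at 0.151 to 0.323, and those of differently numbered ones at -0.280 to 0.204. PK7 set 1 correlated at 0.204 with PK19 set 3 and at 0.151 with PK19 set 1. Same-numbered arrays correlated at -0.092 to 0.190 for PK7 with PK25 and at -0.023 to 0.381 for PK19 with PK25. The transcript of the introduced gene is not analysed here. Python 3.11.15 computed the summaries. The number of arrays limits the precision.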

Additional observations from a re-analysis of the deposited data

How the results depend on the processing

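The count of 3158 called genes became 4777 with arrayWeights and 550 with a 2-fold minimum added, and ranged from 2213 (without PK19 replicate 3) to 3014 (without PK7 replicate 2) when any 1 array of the 2 clones was left out. The 2-fold count of 550 ranged from 545 to 586 over the same settings, and was 417 with a pseudocount of 16. Genes in runs, 1650, ranged from 1535 to 1788 without 1 array and from 1363 to 1849 over all settings. With sets as the replicate block, 2995 genes were called on the 6 arrays, and 2603 on 9 parkin arrays against 2511 without the block. On the 6 arrays the block kept 252 of the 275 named calls and lost 23. Results given with the set block are from the 6 arrays unless the 9 are named. In the settings that gave a value (18, or 17 for the 13 named genes that the filter on dim probe sets removed) no called named gene reversed, and 209 of 275 called named genes kept their call in each. Of 654 list medians 31 moved by more than 1 SD between arrays. Dim genes limit the folds, since signal near background compresses them.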
